A study of Mus musculus with 2 samples.

Results

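Cluster 19 (C19) held the 65 cells that the deposited clustering numbered 19, out of 24343 splenic cells in 20 clusters. The cells came from female C57BL/6 mice of 8 weeks, either wildtype (WT) or lacking the transcription factor Batf3 (Batf3-/-), which is known for its part in making the cDC1 class of conventional dendritic cells (DCs). Each genotype was 1 library from a pool of 6 mice, and the experiment was done once, so no difference between genotypes could be tested. Spleens were digested, red blood cells were lysed, T and B cells were depleted, and live cells positive for MHCII and CD11c were sorted and read by CITE-seq, which counts transcripts and antibody-derived tags (adt) as unique molecular identifiers (UMIs) in each cell. C19 took 29 of 12224 WT cells (0.237%, exact binomial 95% interval 0.159 to 0.341%) and 36 of 12119 Batf3-/- cells (0.297%, 0.208 to 0.411%), and the 2 intervals overlap. All intervals here cover counting error only.

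The general stem cell name that most C19 cells carried was not matched by the summed level of their stem cell markers. SingleR, which names a cell by its likeness to reference profiles, called 46 of the 65 cells stem cells (70.8%) in its short labels, 22 in WT and 24 in Batf3-/-, and gave that name to 8 of the 24278 other cells. Its long labels called 55 of them "Stem cells (SC.MEP)", a name used for no other cell, in which MEP is the usual abbreviation for progenitors of megakaryocytes and red cells. Of the general stem and progenitor markers, 7 of the 14 examined were at 0 UMIs in C19, among them Cd34, Ly6a, Gata2 and Meis1 (a count that allows up to 7.11 counts per 1000000 UMIs, CPM), and the gene Kit had 10 UMIs in 4 cells. Lmo2 and Tal1, also among these markers, were higher than elsewhere, as given below. The markers summed to 554 CPM in C19 and 487 CPM elsewhere (log2 ratio 0.19, -0.003 to 0.37). The leading genes of the cluster were those of red blood cells: globins, the carbonic anhydrases Car1 and Car2 and the red cell transcription factor Klf1. C19 is therefore named below by its number and by these genes.

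Red blood cells arise from progenitors that answer to erythropoietin through its receptor, Epor. The factors Gata1, Tal1 and Klf1 switch on the genes of the red cell membrane, heme synthesis and the globins, while the cell still divides. As globin accumulates, the cell stops making ribosomes and stops dividing, clears most other transcripts, and finally loses its nucleus. The mouse spleen is a known site of this process, alongside the bone marrow.

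Gata1 is known to bind DNA letters of the form AGATAA, and Klf1 the letters CCNCNCCC. Stretches of 4 promoters of C19 genes are shown because they hold such letters within 250 bases before the start of the gene. Sequences are from RefSeq on GRCm38.p6, are written 5′ to 3′ on the strand of the gene, and carry the matched letters, read on either strand, in capitals. Epor lies on the minus strand and its stretch is chr9:21963580-21963715. Rhd, a blood group membrane protein, lies on the plus strand (chr4:134864478-134864513). Kel, another blood group protein, lies on the minus strand (chr6:41704361-41704396), as does Epb42, which codes for a protein of the red cell membrane skeleton (chr2:121037083-121037118).
Epor: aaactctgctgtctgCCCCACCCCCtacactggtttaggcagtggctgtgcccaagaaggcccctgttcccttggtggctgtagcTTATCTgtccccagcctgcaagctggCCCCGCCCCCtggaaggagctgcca
Rhd: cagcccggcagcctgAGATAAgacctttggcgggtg
Kel: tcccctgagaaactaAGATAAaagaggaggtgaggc
Epb42: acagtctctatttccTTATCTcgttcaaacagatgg
The Epor stretch holds AGATAA once and CCNCNCCC in 2 overlapping pairs, and each of the other stretches holds AGATAA once. Among the 25 genes with the largest ratio of C19 to the next highest cluster, 20 had a promoter sequence. A gene was counted when any of its promoter windows held the motif, and some genes have several windows. AGATAA was in 7 of the 20 genes (35%), against 11.4% of 27025 genes with a promoter sequence and 7.11% of the 2010 such genes among those tested below. CCNCNCCC was in 9 of the 20 (45%), against 48.5% and 67.9%. Among list genes with a promoter sequence, AGATAA was in 6 of 21 of the erythroid list (28.6%), 1 of 10 of the heme synthesis list (10%) and 1 of 6 of the globins (16.7%). These matches are descriptions of letters, and no binding was measured. The windows of Klf1 and Rhag held neither motif.

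The depth of C19 cells ran from 899 to 36529 UMIs, with a median of 3812, and only C9 and C17 had lower medians. C19 held 176840 WT and 245176 Batf3-/- UMIs, so 3 UMIs, the limit that a count of 0 is taken to allow, correspond to 7.11 CPM. Mitochondrial transcripts took a median of 0.387% of a C19 cell's UMIs, the lowest of the 20 clusters (2.93 to 15.4% elsewhere), and 46 of 65 cells lay under 1%, against 363 of 24278 others (1.5%). No barcode of a C19 cell occurred in both libraries, whereas 56 barcodes did so in all. The doublet caller Scrublet marked 541 WT and 244 Batf3-/- cells and none in C19.

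To describe lineage, UMIs were summed over C19 and over all other cells, and each gene's ratio was taken between the 2 CPM values. A gene was called when it was over 4-fold higher or lower and the mean of the 2 values was at least 50 CPM. Of 2505 genes past this filter, 210 (8.38%) were called higher and 419 (16.7%) lower in C19, around a median log2 ratio of -0.14. Because the clusters were made from these same transcripts, the ratios are given without a test. Of the 210 higher genes, 167 (79.5%) were past 4-fold in each library taken alone, and of the 419 lower genes 306 (73.0%).

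Globins, the oxygen carriers, were the largest difference in summed level among the lists. The globin list took 24.8% of all C19 UMIs (23.5% in WT, 25.7% in Batf3-/-) and 0.00993% of those of all other cells. The log2 ratio was 11.28, with 10.41 within WT and 13.57 within Batf3-/-. Hbb-bs, the main adult beta chain gene (chromosome 7, 103826534 to 103828096, minus strand, GRCm38), had 118780 CPM in the WT and 133635 CPM in the Batf3-/- cells of C19, and 51.2 CPM elsewhere. Hba-a1, an alpha chain gene, had 46613 and 46697 CPM against 17.8 CPM. The pooled sums of both libraries were far above every other cluster, of which C18 was the highest at 7031 CPM for the list. Nearly all of that C18 level lay in 2 of its 78 cells, WT cells with 2719 and 910 globin UMIs. The pooled level of C19 was also carried by few cells, since the 11 C19 cells with most globin, described below, held 71880 of its globin UMIs (68.8%). The coding bases of Hba-a1 and Hba-a2 are equal at 428 of 429 positions and those of Hbb-bs and Hbb-bt at 443 of 444, so reads of coding bases may not tell the copies apart. Bases outside the coding part were not compared, and how the reads were split between copies was not tested, so the sum is given beside single genes.

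Red cell genes other than globins were higher together in the sums. All 29 erythroid list genes in the table had UMIs in C19, 20 of them were called higher, none lower, and 9 lay under the filter, beside the 8.38% of all genes called higher. Most of these genes passed the filter only through C19, so their count is a description. Their summed level was 14007 CPM in C19 and 112 CPM elsewhere (log2 6.96, 6.92 to 7.00), and the highest other cluster, C13, reached 291 CPM. The median log2 ratio of the members was 10.96, against -0.14 over all genes tested. Car2, an enzyme that hydrates carbon dioxide, was seen in 65 of 65 cells, with 4614 CPM in WT, 4254 CPM in Batf3-/- and 12.8 CPM elsewhere. Slc4a1, the anion exchanger of the red cell membrane, had 769 and 571 CPM against 0.0972 CPM, and Epb42, whose protein binds it, had 158 and 130.5 CPM against 0.0211 CPM. The blood group proteins Rhd (599 and 387.5 CPM), Rhag (141 and 126 CPM) and Kel (96.1 and 77.5 CPM) were each under 0.04 CPM in all other cells. Aqp1, a water channel, had 305 and 171 CPM against 0.0634 CPM.

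The regulators of this program were sparse in C19 and rarer still elsewhere. Klf1 (chromosome 8, 84901928 to 84905291, plus strand) had 83 UMIs in WT and 61 in Batf3-/- C19 cells, 341 CPM in all, against 34 UMIs in all 24278 other cells (0.144 CPM). Gata1 (chromosome X, 7959260 to 7978071, minus strand) had 16 UMIs in each library, 75.8 CPM, against 9 UMIs elsewhere. Tal1 had 42 UMIs against 11. Zfpm1, the cofactor of Gata1, had 133 CPM against 1.27 CPM. Epor had 12 UMIs in WT and 17 in Batf3-/-, 68.7 CPM against 0.0549 CPM, spread over 14 cells. Gata1, Tal1 and Epor lay under the filter and so were not among the called genes. Lmo2, a partner of Tal1 that stem cells also use, had 358 CPM against 93.9 CPM, a ratio just inside 4-fold. Gfi1b and Nfe2, further red cell and megakaryocyte factors, had 66.3 and 71.1 CPM against 0.0592 and 1.03 CPM and were under the filter.

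Genes of heme synthesis were higher too. Of the 13 heme synthesis genes, 9 were called higher and 2 lay under the filter, beside the 8.38% of all genes tested. Members rare elsewhere, such as Alas2, passed the filter only through C19, so that count is a description. The list summed to 4483 CPM against 426 CPM (log2 3.40, 3.33 to 3.46), with a median member at 4.46. Alas2, the red cell form of the first enzyme of the pathway, had 611 CPM in WT and 636 CPM in Batf3-/- C19 cells against 0.359 CPM elsewhere. Tfrc, the receptor that brings iron into cells, had 288 and 281 CPM against 27.6 CPM. Iron storage genes were close to level between C19 and the rest: Fth1 had 5782 CPM in C19 and 3868 CPM elsewhere, and Ftl1 2998 and 2687 CPM. The iron handling list as a whole had a log2 ratio of 0.67, with 3 of 10 genes called higher (8.38% of all genes tested) and 5 under the filter. Among the 3 were Glrx5 and Slc25a37, which serve iron use in mitochondria (1033 against 59.5 CPM and 481 against 26.4 CPM).

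The 25 genes with the largest ratio of C19 to the next highest cluster also included genes outside the lists. Among them were Aldh1a1, a retinal dehydrogenase (164 CPM in WT, 106 in Batf3-/-, 0.0254 elsewhere), Col5a1, a collagen chain (102, 48.9 and 0.0169 CPM), and Sox6, a transcription factor (141, 179.5 and 0.0507 CPM). Asb17os had 24 UMIs in 15 C19 cells and 0 in all other cells. Apol11b differed from the rest of this group, since 44 of its 45 UMIs were in Batf3-/- cells and all lay in 5 cells. Of the 210 higher genes, 58 belonged to a list and 152 to none.

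Lists of other lineages were mostly low in C19, while the intervals of the stem and progenitor, macrophage and mast cell lists included the level elsewhere. The stem and progenitor list summed to 234 UMIs, 554 CPM against 487 CPM elsewhere (log2 0.19, -0.003 to 0.37), with C19 at rank 5 of the 20 clusters and C14 highest at 2359 CPM. Most of those 234 UMIs were of Lmo2 (151) and Tal1 (42), which the red cell program also uses. The megakaryocyte list had 13 UMIs, of which Gp9, a platelet surface protein, had 6 and Pf4 had 2. WT cells held 10 of the 13, and the log2 ratio was -0.90 (-1.81 to -0.13). It was -0.13 (-1.19 to 0.75) within WT and -2.11 within Batf3-/-. In the granulocyte list, Calr, a chaperone that all cells use, had all 119 UMIs, while Mpo and Elane, the enzymes of its granules, were at 0. Mast cell, basophil and eosinophil markers had 9 UMIs, all of Il1rl1, which is 21.3 CPM against 12.1 CPM elsewhere (log2 0.81, -0.32 to 1.74, C19 at rank 5 of 20), with a log2 ratio of 1.70 within WT and -0.19 within Batf3-/-. The B cell list had 16 UMIs, the T cell list 2, the NK cell list 7 and the plasmacytoid DC list 34, and each of these 4 sums was the lowest of the 20 clusters. Stromal and endothelial markers had 2 UMIs, both of Pecam1, the monocyte list 99 UMIs (log2 -2.63, 3 of 15 genes called lower and the other 12 under the filter, beside 16.7% of all genes tested, with a log2 ratio of -3.79 within WT and of -4.39 without the 5 H2-Aa-rich cells described below) and the macrophage list 67 UMIs (log2 -0.05, -0.42 to 0.29, C19 at rank 6 of 20), of which those cells held most. The macrophage ratio was -1.30 within WT and -1.69 (-2.47 to -1.01) without those cells. In lists where most members were at 0 in C19, a median over members with 0 set to the 3 UMI floor only reflects that floor (it was 1.91 for the stem and progenitor list and 2.71 for the B cell list), so their sums are given instead.

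**Figure D1:**
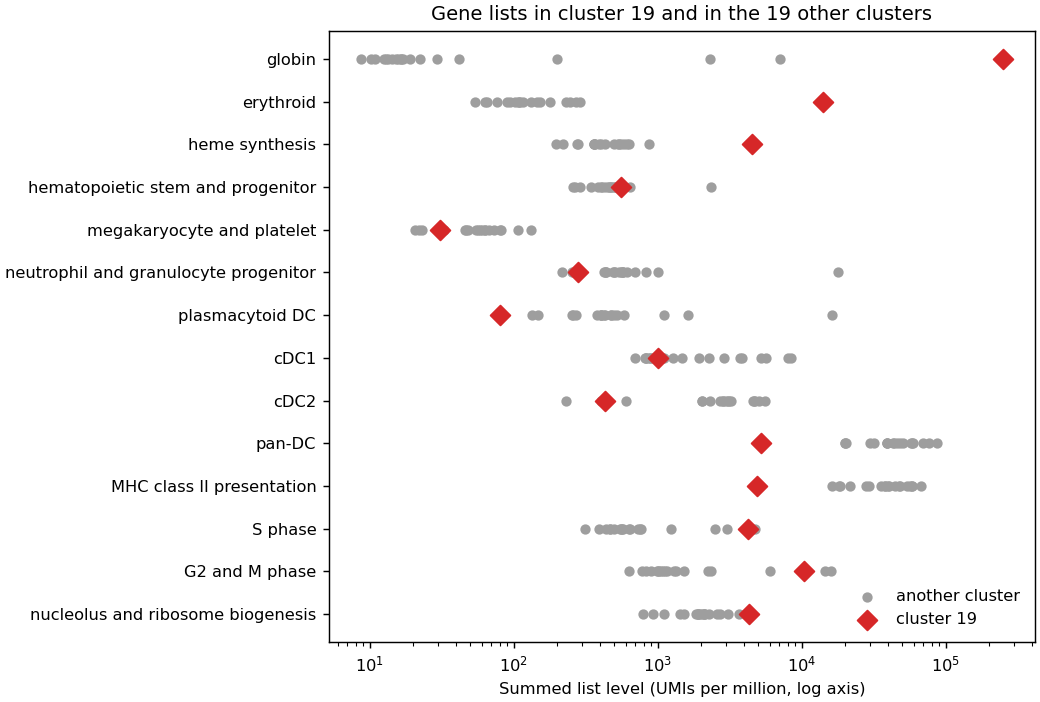
Summed level of 14 gene lists, in CPM on a log axis, for C19 (red diamonds) and the 19 other clusters (grey points). C19 stood above every other cluster for globin, erythroid and heme synthesis genes, below every other cluster for pan-DC and MHC class II genes, and within their range for stem and progenitor genes.

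DC transcripts were low, although the cells came through a gate for MHCII and CD11c. The pan-DC list summed to 5189 CPM against 54736 CPM elsewhere (log2 -3.40, -3.46 to -3.34), with a median member at -3.27. Of its 16 genes, 11 were called lower and 4 lay under the filter, beside the 16.7% of all genes tested that were called lower. The pan-DC ratio was -5.26 within WT and -2.69 within Batf3-/-. The MHC class II list had a log2 ratio of -3.28, with 9 of 11 genes called lower, and the MHC class I list one of -2.40, with 5 of 9. Within WT these were -5.29 and -2.96, within Batf3-/- -2.64 and -2.09, and without the 5 Batf3-/- cells described below -5.42 and -3.10. All 3 pooled sums (pan-DC, class II and class I) were the lowest of the 20 clusters, where the next lowest for pan-DC genes was C13 at 19995 CPM. Cst3, a protease inhibitor that DCs make in large amounts, had 237.5 CPM in WT, 285.5 CPM in Batf3-/- and 7485 CPM elsewhere. Irf8, a transcription factor of cDC1, had 5 UMIs, all in WT cells (28.3 CPM), against 566 CPM elsewhere. Batf3 itself had 1 UMI, in a WT cell, so C19 holds no check of the genotype. The cDC1 list had a log2 ratio of -1.41 and the cDC2 list one of -2.72, with 8 of 16 and 7 of 17 genes called lower (16.7% of all genes tested). Under the filter, and so not tested, lay 7 cDC1 and 10 cDC2 members. The cDC2 value rests on 174 Batf3-/- UMIs against 7 in WT, and it was -5.72 within WT, -2.34 within Batf3-/- and -6.29 without 5 Batf3-/- cells described below. The cDC1 ratio was -1.82 within WT and -0.34 within Batf3-/-. Within C19 the cDC1 sum was 1159 CPM in WT and 901 CPM in Batf3-/-, so these ratios differ through the other cells of each library. Of the cDC1 list, 1 marker was higher: Cd24a, a surface protein also carried by red cell precursors, had 1001 CPM in WT, 767 CPM in Batf3-/- and 79.6 CPM elsewhere. Cd24a thus made up most of the cDC1 sum of C19 in each library. The median member of that list was at a log2 ratio of -3.69, with members at 0 set to the 3 UMI floor.

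In the list of 26 lineage transcription factors, 16 lay under the filter, Klf1 and Zfpm1 were called higher (8.38% of all genes tested) and 6 genes lower (16.7% of all genes tested), namely Irf8, Batf3, Id2 (54.5 against 565 CPM), Tcf4 (18.96 against 135 CPM), Sox4 (21.3 against 105 CPM) and Spi1, the factor of myeloid cells. Spi1 had 30 UMIs in 7 cells, all Batf3-/-, 71.1 CPM against 441 CPM elsewhere. In the cytokine receptor list of 16 genes, 5 were called lower and 10 lay under the filter, beside 16.7% of all genes tested. This list was the lowest of the 20 clusters (log2 -2.22), although Epor was among its members. Its ratio was -2.88 within WT, -1.87 within Batf3-/- and -3.01 without the 5 H2-Aa-rich cells described below. Flt3, the receptor that DC precursors need, had 1 UMI in WT and 3 in Batf3-/- cells, 9.48 CPM against 135 CPM. The genes with the lowest ratios among those of 500 CPM or more elsewhere were Irf8, Ccl5, Cst3, Tmsb10, Crip1, H2-DMa, Psap, Plac8, Gm2a and Junb, with log2 ratios from -5.58 to -3.42. Ccl5, a chemokine, was at 28.4 CPM in C19 and 834.5 CPM elsewhere, and Psap, a lysosomal protein, at 121 and 1577 CPM. Genes that respond to tissue dissociation were also low (log2 -1.57, 10 of 15 called lower beside 16.7% of all genes, among them Jun at 261 against 1449 CPM), and mitochondrial and tag counts were low in the same cells, which was not tested further.

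Most of the DC transcripts in C19 lay in 5 cells. H2-Aa, an MHC class II chain, was at 0 UMIs in 21 cells, at 1 to 5 UMIs in 39 cells and at 39 to 91 UMIs in the remaining 5, with no cell in between. Those 5 cells were all Batf3-/-, held 293 of the 361 H2-Aa UMIs (81.2%), and had 9179 to 29271 UMIs each. All 5 held globin (2.54 to 47.5% of UMIs), 1 of them had the stem cell label, and 9 of the 10 Kit UMIs were theirs. One of them also held 41 UMIs of Lyz2 and 11 of C1qa, genes of macrophages. Scrublet gave them scores of 0.131 to 0.378, against a C19 median of 0.146, and called none a doublet. Whether they are droplets with more than 1 cell was not tested beyond that. Without them the pan-DC log2 ratio was -5.35 in place of -3.40 and the erythroid one 7.01 in place of 6.96.

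Free RNA in droplets gives UMIs to cells that do not make a transcript, so shares of cells with a UMI were compared after thinning each cell to 1000 UMIs, which left out 1 C19 cell. A globin UMI was then present in 85.9% of 64 C19 cells (74.98 to 93.4%) and in 0.775 to 9.98% of the cells of the other clusters, C11 having the most. An erythroid list UMI was present in 100% of C19 cells (94.4 to 100%) and in 4.40 to 28.2% elsewhere. A stem and progenitor UMI was in 32.8% of C19 cells, within the 19.2 to 81.2% of the other clusters, and a pan-DC UMI in 48 of the 64 cells, a share below the 91.2% or more elsewhere. Unthinned, the globin and erythroid shares of C19 cells were 89.2% and 100%, and the median depth of C11, at 9306 UMIs, was above that of C19.

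**Figure D2:**
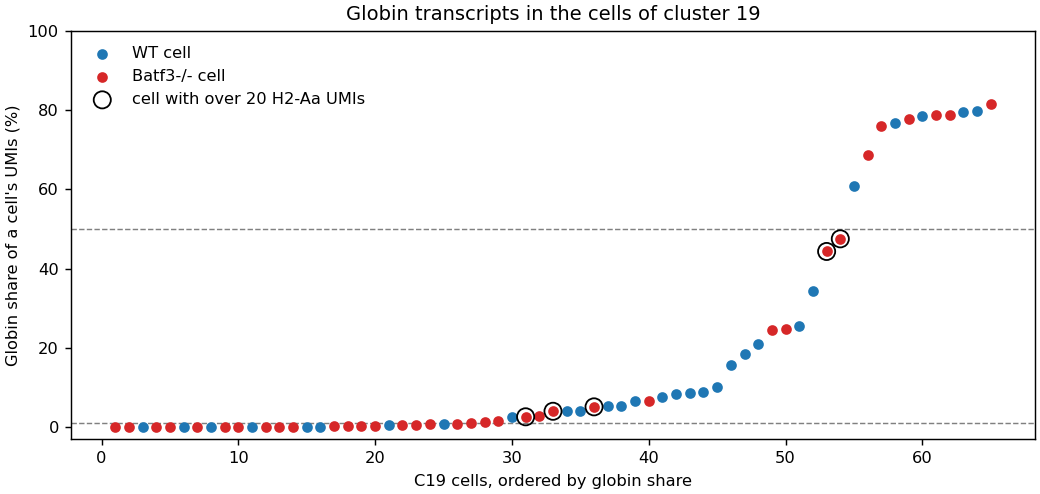
Globin share of UMIs in each of the 65 C19 cells, ordered by that share, with WT cells in blue, Batf3-/- cells in red, and dashed lines at 1% and 50%. The share ran from 0 to 81.5%, with 27 cells below 1%, 27 from 1 to 50% and 11 above 50%, and the 5 ringed cells with over 20 H2-Aa UMIs all lay from 1 to 50%.

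C19 cells differed widely from each other in globin. The share of globin in a cell's UMIs ran from 0 to 81.5%, with a median of 7.63% in WT and 0.859% in Batf3-/- cells. For description the cells were placed in 3 ranges, chosen after the values were seen: 27 cells below 1% (8 WT, 19 Batf3-/-), 27 from 1 to 50% (16 and 11) and 11 above 50% (5 and 6). These are ranges and not types. The cells nearest the lower limit had 0.916% and 1.14%, and those nearest the upper limit 47.5% and 60.8%. The short stem cell label was given to 25, 21 and 0 cells of the 3 ranges, and the long label "Stem cells (SC.MEP)" to 27, 21 and 7 cells. Of the 5 cells called macrophages in the short labels the median was 78.7% globin, and of the 46 called stem cells it was 0.654%.

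The cells above 50% globin held fewer kinds of other transcripts. The median number of genes was 1267 below 1% globin, 1231 from 1 to 50% and 634 above 50%. After thinning each cell to 800 UMIs other than globin it was 488 (398 to 560), 474 (397 to 547) and 369 (302 to 498), so the ranges of single cells overlap. All values that follow are per non-globin UMI, so that globin does not lower them by its own amount. Ribosomal protein genes took a median of 33.8% of non-globin UMIs below 1% globin, 33.5% from 1 to 50%, and 2.93% above 50% (2.21 to 23.0%). Genes of the nucleolus, where ribosomes are made, took 1.11%, 0.256% and 0%. Summed over C19, the nucleolus list was the highest of the 20 clusters, at 4308 CPM against 2289 CPM elsewhere and 3667 CPM in C6, the next (log2 0.91, with none of the 11 members that passed the filter past 4-fold, beside 8.38% of all genes called higher, and 9 members under the filter). That rank holds for the pooled sum, since the list was at 3071 CPM in the WT and 5200 CPM in the Batf3-/- cells of C19. The medians of nucleolus genes thus differed already between the first and the middle range, and those of ribosomal protein genes in the last.

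**Figure D3:**
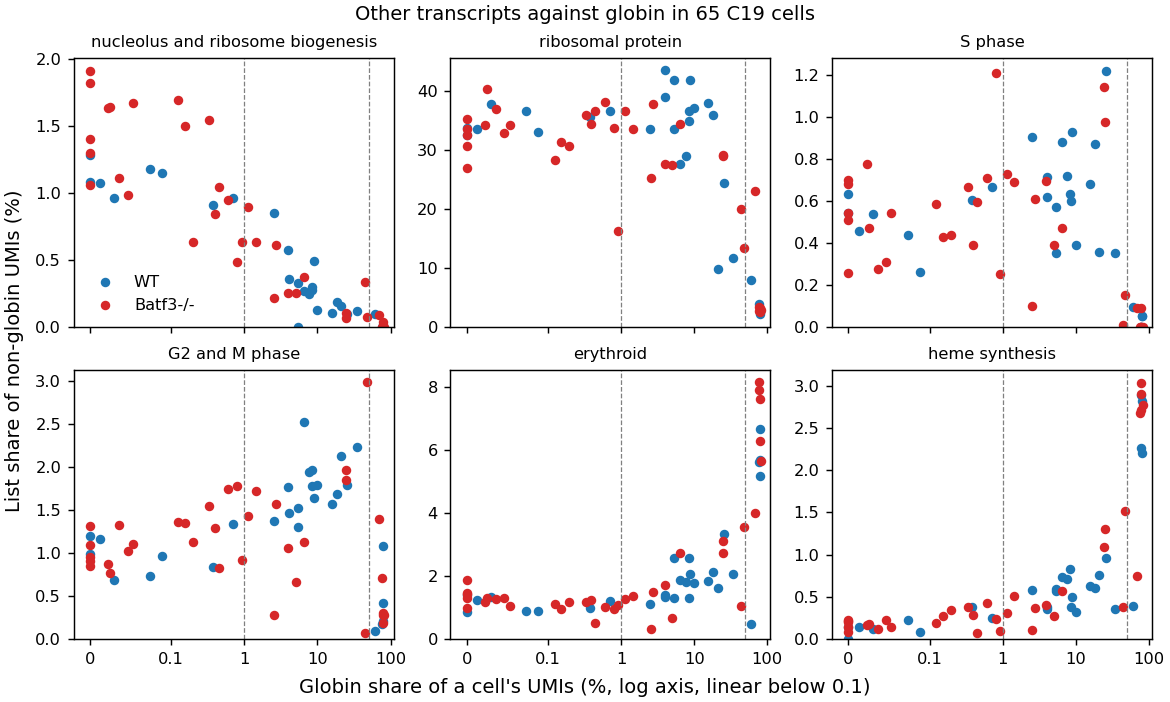
Share of non-globin UMIs (%) taken by 6 gene lists in each of the 65 C19 cells against the cell's globin share (%, log axis, linear below 0.1), WT in blue and Batf3-/- in red, with dashed lines at 1% and 50%. Nucleolus genes were lower and heme synthesis genes higher in cells with more globin (Spearman's rho -0.93 and 0.87), and the cells above 50% globin had low medians of S phase (0%) and ribosomal protein UMIs (2.93%), with 1 cell at 23.0% for the latter.

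Heme synthesis genes took a median of 0.185%, 0.566% and 2.72% of non-globin UMIs in the 3 ranges, and erythroid list genes 1.18%, 1.79% and 5.70%. Across the 65 cells, Spearman's rho with the globin share was -0.93 for nucleolus genes, 0.87 for heme synthesis, 0.66 for erythroid genes and -0.51 for ribosomal protein genes. It was 0.51 for the pan-DC list, 0.47 for the MHC class II list and 0.59 for the adt total. Pan-DC genes took a median of 0.145%, 0.189% and 0.513% of non-globin UMIs in the 3 ranges, so DC transcripts and adt totals were also higher in cells with more globin, and their part in the other relations was not tested. The adt totals were higher mainly through the antibodies of rows 8 and 11, described below. These are descriptions over cells of 2 libraries, which share their library and differ in depth. Individual red cell genes did not all follow one course. Values of single genes by range are summed over cells, so cells with many UMIs weigh most. From 1 to 50% globin, cells of 26467, 28118 and 33741 non-globin UMIs lay in a total of 197768. Car1 was at 2954, 1244 and 0 UMIs per 1000000 non-globin UMIs in the 3 ranges, Epor at 121, 86.0 and 0, and Gata1 at 101, 111 and 0. The range above 50% held 20518 non-globin UMIs, where 3 UMIs correspond to 146 per 1000000, so a lower level of Epor and Gata1 there was not detectable at this depth. Klf1 was at 373 and 531 in the lower ranges and had 2 UMIs above 50%.

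Other red cell genes were higher in the cells with more globin. These were chosen after their values were seen. Slc4a1 was at 10.1, 764 and 6044 per 1000000 non-globin UMIs in the ranges below 1%, from 1 to 50% and above 50%. Alas2 was at 0, 460 and 8432, Fech, the last enzyme of heme synthesis, at 111, 339 and 3460, and Tfrc at 30.2, 485 and 1024. Bpgm, whose product lowers the oxygen affinity of hemoglobin, was at 10.1, 172 and 13159, and Trim10, a protein of late red cell development, at 0, 207 and 5215. Xpo7, a nuclear exporter, was at 0, 45.5 and 7164. Ncl and Npm1, proteins of the nucleolus, had the opposite order, at 2964, 688 and 0 and at 5232 and 1016, with 2 UMIs above 50%.

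**Figure D4:**
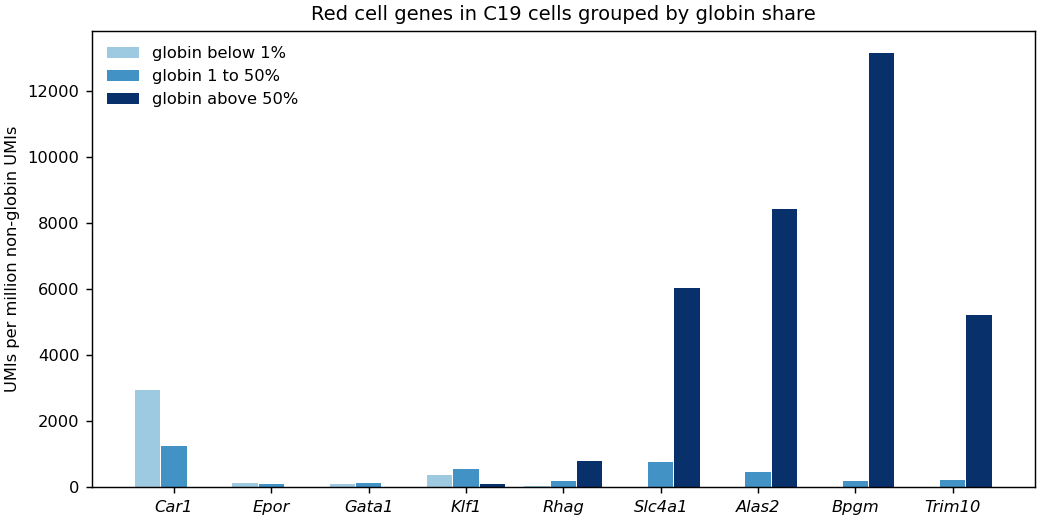
UMIs per 1000000 non-globin UMIs of 9 red cell genes in C19 cells with globin below 1% (27 cells), from 1 to 50% (27 cells) and above 50% (11 cells), as bars of summed UMIs without error bars. Car1, Epor and Gata1 had no UMI above 50% globin, where the 3 UMI floor of 146 lies above the Epor and Gata1 levels of the other ranges, while Slc4a1, Alas2, Bpgm and Trim10 had their highest bar there.

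A pair of interferon-induced genes were also high in some cells with most globin. Rsad2, an antiviral enzyme, was at 0, 55.6 and 14036 per 1000000 non-globin UMIs in the 3 ranges, with UMIs in 9 of the 11 cells above 50%. Isg15, a ubiquitin-like protein, was at 60.5, 379 and 11063, with UMIs in 10 of the 11. Most of these UMIs lay in 2 cells, which held 180 of the 227 Isg15 and 165 of the 288 Rsad2 UMIs of that range, while the median cell had 6 and 16. Without them Isg15 was at 2884 and Rsad2 at 7549. Malat1, a nuclear RNA, was at 2016, 11063 and 51175. These genes were picked after their values were seen.

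C19 was labelled as cycling, and most of its cells held cell cycle transcripts. The deposited phases placed 36 cells in G2M, 24 in S and 5 in G1, so that 92.3% were in S or G2M (83.0 to 97.5%). The S phase list summed to 4208 CPM in C19 and 1222 CPM elsewhere (log2 1.78), with 10 of 40 genes called higher, and the G2 and M phase list to 10379 and 3024 CPM (log2 1.78), with 12 of 52, beside the 8.38% of all genes tested. Under the filter lay 21 and 23 members of these lists. Mki67, a marker of dividing cells, had 893.5 CPM in WT, 392 CPM in Batf3-/- and 107 CPM elsewhere. Against the cycling DC clusters C5, C6, C7 and C10 alone (2529 genes tested, 6.29% higher and 13.3% lower, median log2 -0.25), the S list had a log2 ratio of 0.51 with no gene called higher, and the G2 and M list 0.40 with 1, Tubb4b, a tubulin (1043 against 240 CPM). Pooled over its cells, and with globin in the totals, C19 thus lay near the cycling DCs on these lists. The erythroid list still had a log2 ratio of 6.85 against the cycling DCs. The globin ranges differed when CPM was taken over non-globin UMIs. Below 1%, from 1 to 50% and above 50% globin, the S list was then at 5293, 6295 and 292. Its level in the cycling DCs was 2948.5 CPM. The G2 and M list was at 11110, 16110 and 4484, against 7856 CPM. The pooled ratios thus combine ranges above and below the cycling DCs.

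The medians of the S and the G2 and M lists were lowest in the cells above 50% globin. Across the 65 cells, Spearman's rho with the globin share was -0.34 for the S list and 0.03 for the G2 and M list. A second call took a cell as cycling by its S or G2 and M share of all UMIs. That share had to be above that of 95% of the cells of C0 and C4. The second call gave 27 of 27 cells below 1% globin, 26 of 27 from 1 to 50% and 2 of 11 above 50%. By its construction it gave 782 of 8370 cells (9.34%) in C0 and C4. The deposited phases gave 27, 26 and 7 cells for the 3 ranges, and the second call per non-globin UMI gave 8 of 11 in the last range, so that range rests on the denominator. S phase genes took a median of 0.545%, 0.634% and 0% of non-globin UMIs, and G2 and M genes 1.09%, 1.69% and 0.282%. Mki67, summed over the cells of each range, was at 121, 1173 and 487 per 1000000 non-globin UMIs.

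The adt counts give a second readout that did not enter the clustering of transcripts. The 11 antibodies appear as numbered rows in the deposited tables, without names, so the rows are given by number. The total per C19 cell had a median of 375 (386 in WT, 369.5 in Batf3-/-), the lowest of the 20 clusters, where C13 was next at 393 and C4 highest at 692. C19 had the lowest median in rows 1, 2, 3, 4, 5 and 10. Row 8 was unlike these: its C19 median was 62 (77 in WT, 58 in Batf3-/-), with 4 clusters higher. Outside C19, the row 8 counts went, among 11 genes examined, most closely with the transcripts of the cDC1 genes Xcr1 (r 0.598 over cells), Cd24a (0.574), Clec9a (0.553) and Cd8a (0.510).

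**Figure D5:**
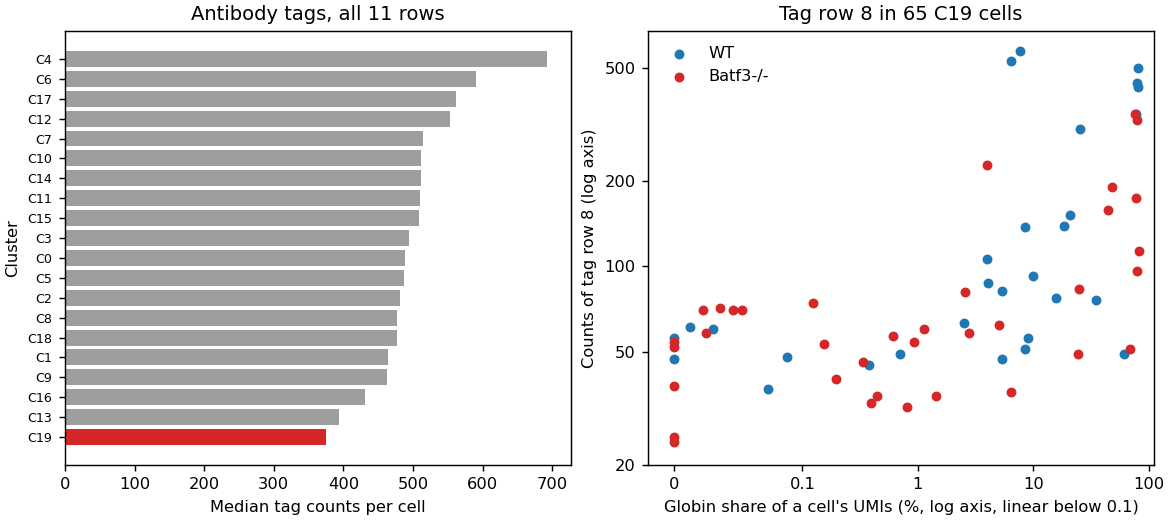
Left, median adt counts per cell over all 11 rows for each cluster, with C19 in red at 375, the lowest. Right, counts of adt row 8 (log axis) against globin share (%, log axis, linear below 0.1) in the 65 C19 cells, WT in blue and Batf3-/- in red, where 6 of 11 cells above 50% globin lay above 200 counts.

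Row 8 was higher in the C19 cells with more globin. Its median was 52 below 1% globin (24 to 74), 82 from 1 to 50% (35 to 573) and 327 above 50% (49 to 497). In the last range the median was 427 in the 5 WT cells and 143.5 in the 6 Batf3-/- cells. More than 200 counts were found in 6 of the 11 cells above 50% globin, 4 of the 54 other C19 cells and 522 of 24278 cells elsewhere (2.15%). Spearman's rho with globin was 0.63 over the 65 cells, 0.63 within WT and 0.54 within Batf3-/-. Row 11 was also higher in the cells with most globin, with medians of 38 (18 to 51), 44 (22 to 125) and 88 (39 to 102). The counts of all rows but row 8 together had medians of 300, 315 and 353. Cd24a transcripts were at 302, 1269 and 4094 per 1000000 non-globin UMIs in the same ranges. Which protein row 8 marks was not tested.

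Between genotypes, C19 can only be described, since each has 1 library. Batf3-/- over WT, the log2 ratio was 0.13 for pooled globins, although the median cell held 7.63% globin in WT and 0.859% in Batf3-/-. It was -0.20 for erythroid genes, -0.42 for heme synthesis, -0.59 for S phase, -0.67 for G2 and M and 0.76 for nucleolus genes. The WT sums include deep cells of 28288 and 36529 UMIs, out of 176840 WT UMIs in C19. G2 and M genes took 2.52 and 1.94% of the non-globin UMIs of these deep cells. The ratios without these deep cells were not computed. The pan-DC and MHC class II lists had log2 ratios of 2.35 and 2.61, which turned to -0.45 and -0.34 without the 5 Batf3-/- cells rich in H2-Aa. Nucleolus genes had a log2 ratio of 1.21 without those cells, while 19 of 36 Batf3-/- and 8 of 29 WT cells lay below 1% globin, the range where nucleolus genes were highest. Among genes of 200 CPM or more, the largest log2 ratios were those of Cd74 (2.99, 368 CPM in WT and 2929 CPM in Batf3-/-), Cd52 (2.74, 67.9 and 453 CPM) and H2-Aa (2.62, 215 and 1317 CPM). The 5 cells rich in H2-Aa held 676 of the 718 Batf3-/- UMIs of Cd74, 103 of 111 of Cd52 and 293 of 323 of H2-Aa, and without them the log2 ratios were -0.45, -0.41 and -0.16. The lowest were those of mt-Nd3, a mitochondrial gene (-1.60, 594 and 196 CPM), Hist1h2ap, a histone (-1.60, 803 and 265 CPM), and Smim1, a blood group protein (-1.56, 300 and 102 CPM). The library, the pool of mice and the genotype cannot be told apart.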

How the data were processed

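Reads of the 10x 3' libraries (Chromium v3) were processed by the authors with Cell Ranger on GRCm38 (mm10) and Seurat 3.0.5, and bcl2fastq 2.2.0 is named in the submitters' processing notes. The deposited RNA and adt tables hold raw counts (UMIs) per cell. The authors also deposited cluster numbers, SingleR labels, phases, mitochondrial and ribosomal shares as a fraction of UMIs, and S and G2M scores, of which each score was left unused. C19 was read from the deposited cluster numbers, and UMIs were summed over cells to CPM with exact Poisson intervals, and ratios given with exact binomial intervals, at 95%.

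Named genes were the 25 with the largest ratio of C19 to the next highest cluster (20 or more UMIs), the 10 lowest with 500 CPM or more elsewhere, up to 4 members per list and 3 genotype ratios each way, from which the text draws, plus genes chosen after their values were seen (those by globin range, interferon-induced genes, Malat1). The members and the 26 gene lists were chosen with earlier results of these data known. Gene positions are from GENCODE vM21 and promoters from RefSeq. Doublets were called with Scrublet (scanpy 1.11.5, expected rate 0.1) in each library, and none was removed. On simulated counts for 2667 genes of the comparison of C19 with all other cells, 200 of 200 changed genes had the right sign and 196 intervals held the true ratio. Those counts were Poisson draws with large changes and no spread between cells, so they check the calculation only. Python 3.11.15, numpy 2.4.6, scipy 1.17.1 and pandas 2.3.3 were used. Some members of the lists are not reported here.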

Additional observations from a re-analysis of the deposited data

How the results depend on the processing

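Of 93 alternatives, 30 kept a value within its tolerance (the counting interval of a ratio or share, the spread over cells of the adt total, or 1.5 times a count of genes), 59 moved it past that and 4 turned its sign; the cause was not tested except where the setting itself gives it. The log2 ratios of C19 over all other cells follow in the order globin, erythroid, heme synthesis, pan-DC, S, and G2 and M (11.28, 6.96, 3.40, -3.40, 1.78 and 1.78 as reported), where given. Totals without mitochondrial, ribosomal protein and globin genes gave 11.77, 7.45, 3.88, -2.91, 2.27 and 2.26. Cells with the stem label gave 9.04, 7.08, 3.33, -4.62, 2.40 and 2.24. Leaving out the 5 cells with the most UMIs gave 11.58, 6.88, 3.22, -3.96, 1.59 and 1.44. WT alone gave 10.41, 7.17, 3.75, -5.26, 2.19 and 2.19. Batf3-/- alone gave 13.57, 6.78, 3.08, -2.69, 1.42 and 1.40. Against cycling DC clusters they were 14.53, 6.85, 3.29, -3.23, 0.51 and 0.40. Equal weight of cells gave 6.85, 3.23, -3.80, 2.18 and 2.15 for the last 5 lists. Without Scrublet doublets globin was 11.24. Without the 5 cells of over 20 H2-Aa UMIs, chosen after seeing the data, globin was 11.35, erythroid 7.01, pan-DC -5.35, S 1.89 and G2 and M 1.86, and the genotype ratios were 0.28 for globin, 1.21 for nucleolus, -0.45 for pan-DC and -0.34 for MHC class II genes. The stem and progenitor ratio of 0.19 was 0.67 by the first totals, -1.8e-06 with equal weight and -0.021 without the 5 cells with the most UMIs, so it has no firm sign.

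With equal weight of cells, 260 genes were 4-fold higher and 506 lower than in all other cells. With a filter of 20 CPM, 369 genes were 4-fold higher and 918 lower than in all other cells, and 272 and 732 against cycling DCs. With no filter beyond 3 UMIs, 908 were higher and 9510 lower. Of cells with the stem label 100% were in S or G2M. At 2000 UMIs, 94.4% of C19 cells had a pan-DC and 38.9% a granulocyte list UMI. The recomputed phase without globin UMIs and the thinning to 800 non-globin UMIs were also chosen after seeing the data. No paired analysis was possible because each genotype had 1 library. Depth limits transcripts below 7.11 CPM, and 65 cells limit each share.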

Other observations

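Globin transcripts were not confined to C19. Among the other clusters, 41 cells held at least 20 globin UMIs, 23 in WT and 18 in Batf3-/-, of which 18 were in C11 and 15 in C4, with 1 or 2 in each of C18, C2, C3, C5 and C8. These 41 cells held 85.9% of the globin UMIs found outside C19. The highest was a C11 cell with 5740 globin UMIs, 35.6% of its total, and 13 of the 41 cells were above 1% globin. A UMI of the erythroid list was present in 37 of them, but also in 80.0% of all C11 and 58.3% of all C4 cells. Their median was 769 pan-DC UMIs, so these cells held DC transcripts in number beside globin, as did the 5 H2-Aa-rich cells of C19. The source of this globin was not tested.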
